A study of Mus musculus with 2 samples.

Results

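The metabolite-sensing receptors considered here are 6 cell surface receptors for small molecules of energy metabolism: Hcar1, Hcar2 (PUMA-g), Gpr84, Ffar2, Sucnr1 and Gpr35. A probe set is the set of oligonucleotides with which the array reads out a transcript. All probe sets that the annotation assigns to a single gene of these 6 were taken, which gave 7 probe sets, and 18193 genes in all had such a probe set. Ffar2 had 2 probe sets and the other 5 genes had 1 each. The genes were chosen with their signals on these arrays already known, so their values are a description of these arrays.

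RNA came from air pouch membranes of female Balb/C mice, 6 to 8 weeks old. An air pouch is made by injecting air beneath the skin, and the membrane that comes to line it serves as a model of synovium. MSU (monosodium urate) pouches received 2 mg crystals in 1 ml PBS, control pouches received 1 ml PBS alone, and membranes were dissected 9 h later, after the exudate cells had been washed out. RNA of 3 mice was pooled for each condition and each pool was hybridized to 1 oligonucleotide array, so there were 2 arrays, no replicates and no test between the conditions.

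The signals were linear intensities that had been scaled to a common trimmed mean, with a median of 59.2 on the MSU array and 56.4 on the control array. A detection floor was set for each array at 74.1 (MSU) and 64.6 (control), so that as many probe sets lay above it as the study counted as detected. A ratio is called a fold where both signals reached their floor, and a bound ("at least") where only 1 did, set against the floor of the dimmer array. Where that 1 signal did not also exceed the floor of the other array, no value was given. A gene with a fold or a bound is called measured, which held for 11155 of the 18193 genes. RNA controls that are added to every hybridization (18 probe sets, called spike-ins below) gave a higher signal on the MSU array in 18 of 18 cases, and scaling on them would lower every log2 ratio by 0.46. As a check of the tissue, 10 of 10 fibroblast, 14 of 16 macrophage and 8 of 9 endothelial marker genes were measured, as were 1 of 7 T cell and 0 of 5 eosinophil markers. Of skeletal muscle and fat, which can remain on dissected membranes, 12 of 12 and 13 of 14 marker genes were measured.

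These receptors couple intermediates of metabolism to G proteins. Hcar2 binds the ketone body beta-hydroxybutyrate and the drug nicotinic acid, Hcar1 binds lactate, Ffar2 short-chain fatty acids such as acetate, Gpr84 medium-chain fatty acids, Sucnr1 succinate, and Gpr35 has been paired with kynurenic acid among other ligands. In fat cells, Hcar1 and Hcar2 act through the inhibitory G protein Gi, which lowers cyclic AMP and with it the release of fatty acids from stored fat. On leukocytes, Hcar2, Gpr84, Ffar2 and Gpr35 are found on neutrophils and macrophages, where they act on migration and on cytokine release. Hcar1 is foremost a receptor of fat cells, Gpr84 and Gpr35 are foremost receptors of leukocytes among the cells of this tissue, and Hcar2, Ffar2 and Sucnr1 are known from both.

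The leukocyte receptors Gpr84 and Gpr35 and the shared receptor Hcar2 were higher in the MSU pool by 2-fold or more. Ffar2 was 1.25-fold lower, and the fat cell receptor Hcar1 and the succinate receptor Sucnr1 lay below the floor on both arrays. In all, 4 of the 6 genes were measured, of which 3 reached 2-fold higher and 0 reached 2-fold lower. Over all measured genes, 3.7% were higher by at least 2-fold (413 of 11155) and 4.29% lower by at least 2-fold (478 of 11155), and under scaling on the spike-ins 200 and 1787 genes. The receptors were chosen on this same contrast, so nothing is read from their share.

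**Figure D1:**
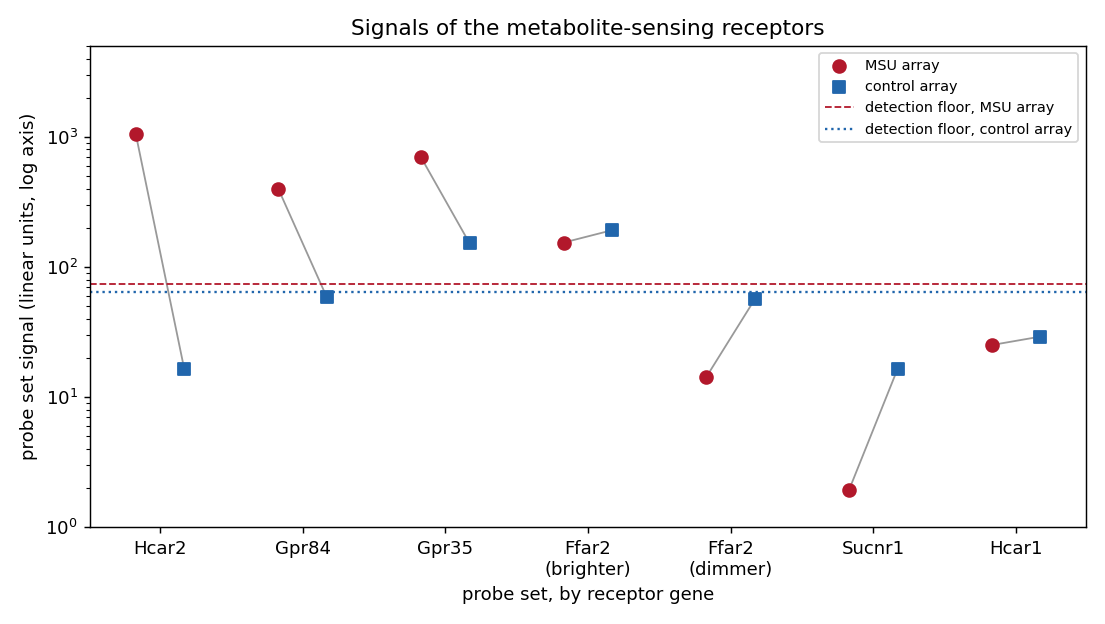
Signal of each of the 7 receptor probe sets (y axis, linear units on a log axis) on the MSU array (red circles) and the control array (blue squares), 1 array each, with the detection floors of 74.1 (MSU, dashed) and 64.6 (control, dotted). Hcar2 lies at 1059 on the MSU array and 16.5 on the control array, whereas both signals of Hcar1 and of Sucnr1 lie below the floors.

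Hcar2, the gene of PUMA-g, had a signal of 1059 in the MSU pool and 16.5 in the control pool. The MSU signal was 14.3 times its floor, and 96.2% of the 45101 probe sets on that array were dimmer. The control signal was 0.255 times its floor, and 24.6% of probe sets were dimmer. With the control signal at its floor, Hcar2 was at least 16.4-fold higher (log2 4.03). By fold or bound Hcar2 ranked 5 of 11155 measured genes. The name PUMA-g refers to its induction in mouse macrophages by interferon gamma.

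Gpr84 had a signal of 398 in the MSU pool and 58.4 in the control pool. The control signal lay just under its floor, at 0.903 times that level, so that Gpr84 was at least 6.15-fold higher (log2 2.62) and the plain ratio of 6.81 differed little from the bound. It ranked 37 among the measured genes. Gpr84 is a leukocyte receptor whose transcript is known to be induced in macrophages by bacterial products.

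Gpr35 had a signal of 695 in the MSU pool and 152 in the control pool. Both signals exceeded the floor, and Gpr35 was 4.57-fold higher (log2 2.19), at rank 51 of the 10045 genes with a fold. Of the receptors above the floor in the control pool, it was the only gene with a higher signal in the MSU pool. Its probe set is of a kind designed to match several transcripts of the same gene, so the start sites of Gpr35 are not told apart by it.

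Ffar2, a receptor for short-chain fatty acids on neutrophils and fat cells, had a signal of 154 in the MSU pool and 192 in the control pool on its brighter probe set. It was 1.25-fold lower (log2 -0.32), at rank 7233 of the 10045 genes with a fold. Its dimmer probe set had signals of 14.3 (MSU) and 56.7 (control), below the floor on both arrays. The log2 ratio of Ffar2 was smaller than 0.33, the pooled SD of log2 ratios among probe sets for the same gene (4002 genes). That SD leaves out differences between mice.

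Hcar1, the lactate receptor of fat cells, had signals of 25.1 in the MSU pool and 29.2 in the control pool, which were 0.339 and 0.451 times the floors. Sucnr1, the succinate receptor, had signals of 1.94 in the MSU pool and 16.5 in the control pool, which were 0.0261 and 0.255 times the floors. No fold is given for either gene. Their signals do not show that the transcripts were absent, only that they were not measured with these probe sets.

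**Figure D2:**
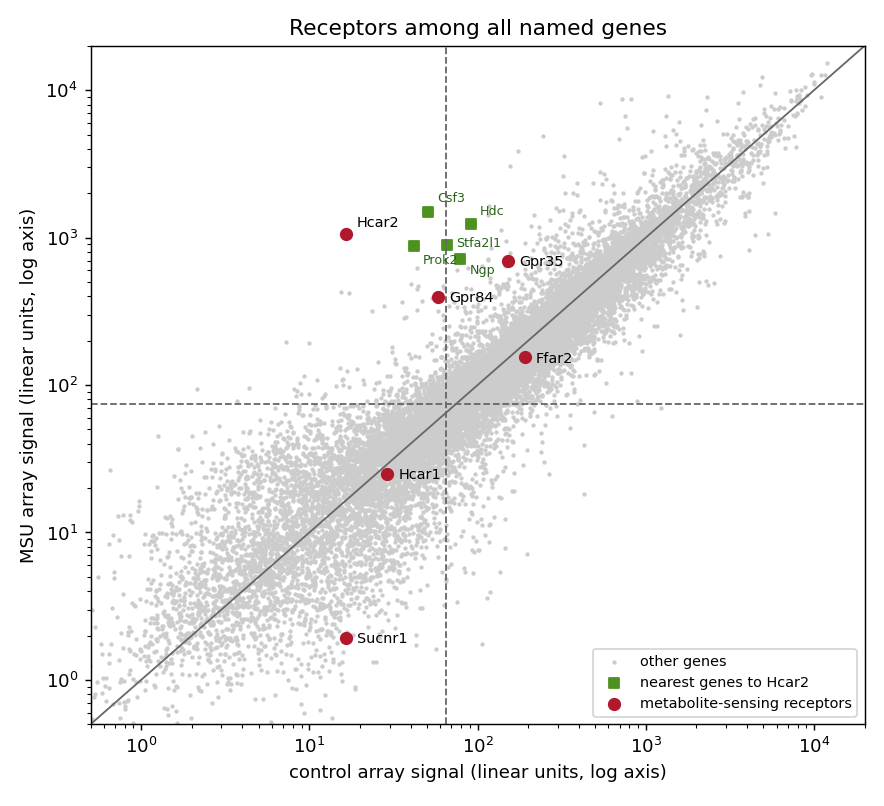
Signal of each of the 18193 named genes on the control array (x axis, linear units on a log axis) against the MSU array (y axis, same scale), 1 array each, with the receptors in red, the 5 genes nearest to Hcar2 in green, the floors as dashed lines and equal signal as a solid line. Hcar2 and Gpr84 lie above the MSU floor and left of the control floor, Gpr35 above both, and Ffar2 close to the line of equal signal.

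The promoters of the receptors are shown to set those of 2 genes that were higher in the MSU pool, Gpr84 and Gpr35, beside that of the fat cell receptor Hcar1, which was not measured. RefSeq promoters of the mouse build GRCm38.p6 were given for 5 of the 6 genes (Hcar1, Gpr84, Ffar2, Sucnr1 and Gpr35), and the 250 bases before each transcription start were searched on both strands for 6 motifs. These were AP-1 (TGANTCA), PU.1 (AGAGGAA), C/EBP (TTNNGCAA), the interferon response element (GAAANNGAAA), the PPARG direct repeat (AGGTCANAGGTCA) and the NF-kB motif. Capitals mark the matches, and each sequence runs 5′ to 3′ on the strand of its gene and ends at the base before the start.
Gpr84, chr15:103310439-103310688, minus strand: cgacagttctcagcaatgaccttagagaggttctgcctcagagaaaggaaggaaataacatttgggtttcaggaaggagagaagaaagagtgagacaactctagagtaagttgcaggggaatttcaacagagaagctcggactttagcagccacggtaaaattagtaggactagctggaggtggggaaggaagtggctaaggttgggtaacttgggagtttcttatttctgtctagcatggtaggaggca
Gpr35 start site 1, chr1:92972869-92973118, plus strand: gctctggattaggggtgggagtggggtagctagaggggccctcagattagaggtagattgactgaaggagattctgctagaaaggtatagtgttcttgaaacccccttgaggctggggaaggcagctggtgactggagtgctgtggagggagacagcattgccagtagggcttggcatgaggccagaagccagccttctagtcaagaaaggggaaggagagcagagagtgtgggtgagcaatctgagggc
Gpr35 start site 2, chr1:92978653-92978902, plus strand: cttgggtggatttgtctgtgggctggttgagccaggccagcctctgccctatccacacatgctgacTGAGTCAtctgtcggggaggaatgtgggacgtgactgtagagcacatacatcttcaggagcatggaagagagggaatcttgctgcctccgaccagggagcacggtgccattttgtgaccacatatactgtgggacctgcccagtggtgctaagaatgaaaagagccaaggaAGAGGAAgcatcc
Hcar1, chr5:123880004-123880253, minus strand: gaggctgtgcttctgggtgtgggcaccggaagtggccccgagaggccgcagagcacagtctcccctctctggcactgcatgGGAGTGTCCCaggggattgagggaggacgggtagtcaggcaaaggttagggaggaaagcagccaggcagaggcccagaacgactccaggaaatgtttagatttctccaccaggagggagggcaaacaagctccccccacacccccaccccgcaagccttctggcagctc
The Gpr84 promoter and the first Gpr35 start site held none of the 6 motifs. The second Gpr35 start site held an AP-1 match 184 to 178 bases before the start and a PU.1 match 13 to 7 bases before it. The Hcar1 promoter held an NF-kB match 169 to 160 bases before the start. Over all 32851 promoter windows of this length, 6.75% held the AP-1 motif, 8.55% the PU.1 motif, 9.56% the C/EBP motif and 7.25% the NF-kB motif, so single matches are common. The interferon response element was found in 2.98% of windows and the PPARG repeat in 0.0335%, and in none of those of the 5 receptors searched. Hcar2 was not among these 5. A match describes the letters of the window and is not a binding site.

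Of the other promoters, that of Sucnr1 held an AP-1 match 159 to 153 bases and a PU.1 match 123 to 117 bases before the start. Ffar2 has 4 start sites in this table, of which the first held an AP-1 and a C/EBP match, the second a C/EBP match, the third a PU.1 match and the fourth a PU.1 and a C/EBP match. The last 2 windows overlap and share the PU.1 match.

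Hcar1 and Hcar2 are neighbours on mouse chromosome 5, by gene order in RefSeq (GRCm38.p6), and encode related receptors. Of the 8 genes from Zcchc8 to Hip1r around them, Hcar2 and Hip1r were higher by 2-fold or more in the MSU pool and none of those measured was lower by 2-fold. Hip1r, which encodes an endocytic adaptor, lies 3 genes beyond Hcar1 and had signals of 223 (MSU) and 53.7 (control), or at least 3.44-fold higher. Denr, a translation factor next to Hcar1, had signals of 219 (MSU) and 325 (control) and was 1.48-fold lower, which scaling on the spike-ins would take past 2-fold. On the other side, Kntc1 had no fold, whereas Rsrc2 and Zcchc8 had log2 ratios of 0.08 and 0.00, which scaling on the spike-ins would turn negative. Next to Gpr84 on chromosome 15, Copz1 was 1.25-fold lower and Zfp385a, with signals of 35.4 (MSU) and 239 (control), at least 3.22-fold lower, while Nfe2, a transcription factor gene of blood cells 2 genes away, was at least 2.98-fold higher (192 in MSU, 52.1 in control). Next to Gpr35 on chromosome 1, Capn10 was 1.35-fold lower and Aqp12 at least 1.25-fold lower.

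The 5 genes closest to Hcar2 were found by the distance between log2 signals on the 2 arrays, after each signal below the floor had been raised to it. They were Stfa2l1, Prok2, Csf3, Hdc and Ngp, at distances of 0.25, 0.27, 0.49, 0.55 and 0.64. Stfa2l1 encodes a stefin, an inhibitor of cysteine proteases, and had signals of 893 (MSU) and 65.5 (control). Prok2, the polypeptide prokineticin-2, had signals of 878 (MSU) and 41.9 (control), and Csf3, the growth factor of granulocytes, 1483 (MSU) and 50.9 (control). Hdc, the enzyme of histamine synthesis, had 1241 (MSU) and 91.6 (control), and Ngp, a neutrophil granule protein, 712 (MSU) and 79.0 (control). The paper lists a larger ratio for Hdc than these 2 Hdc signals give, so its distance holds for the probe set used here. With 2 arrays, this likeness rests on 2 values per gene.

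Markers of neutrophils and of fat cells, which are known to carry these receptors, differed in opposite directions. Of 13 measured neutrophil markers, 12 were higher by 2-fold or more in the MSU pool, and the summed signal of the 15 markers with a probe set was 27169.7 in the MSU pool and 3422 in the control pool. Clec4e, a lectin receptor, was 13.9-fold higher, and the calgranulin genes S100a9 and S100a8 were 12.1- and 10.6-fold higher, whereas lactoferrin (Ltf) was 1.45-fold lower and Camp and Padi4 were below the floor on both arrays and Ly6g was not analysed here. Of 13 measured fat cell markers, 12 were lower by 2-fold or more and none was higher, and the summed signal of the 14 markers with a probe set was 6219.7 in the MSU pool and 23240.4 in the control pool. Thrsp, a regulator of fat synthesis, was at least 16.6-fold lower and the adipokine Adipoq 7.36-fold lower, while the fatty acid carrier Fabp4 had signals of 1482 (MSU) and 5879 (control). Pparg, which directs fat cell formation, was below the floor on both arrays. Skeletal muscle markers, of a tissue that can remain on dissected membranes as fat can, were lower by 2-fold or more for 4 of 12 genes (7 when scaled on the spike-ins), higher by that size for 0, and had a median log2 ratio of -0.76 and a summed signal of 27697.8 (MSU) and 41085.8 (control). The troponin gene Tnni2 was 5.13-fold lower, the lowest ratio of this list, and 10 of the 12 muscle markers had a log2 ratio below 0. The other 2 were Ttn, with a log2 ratio of 0.11, and the brightest marker, Acta1. Acta1 had signals of 8398 (MSU) and 7311 (control) and a log2 ratio of 0.20. Scaling on the spike-ins would turn both ratios negative. The median log2 ratio was 2.82 over the 11 neutrophil markers with a fold and -1.74 over the 11 fat cell markers with a fold, beside -0.05 over all 10045 genes with a fold. The neutrophil markers are not all exclusive to neutrophils, and the paper lists Trem1 as expressed on activated macrophages too. Membranes hold many cell types, so more or fewer cells of a type cannot be told apart from more or less RNA per cell. The part of neutrophil or fat cell numbers, or of fat and muscle left at dissection, in the receptor values was not tested.

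**Figure D3:**
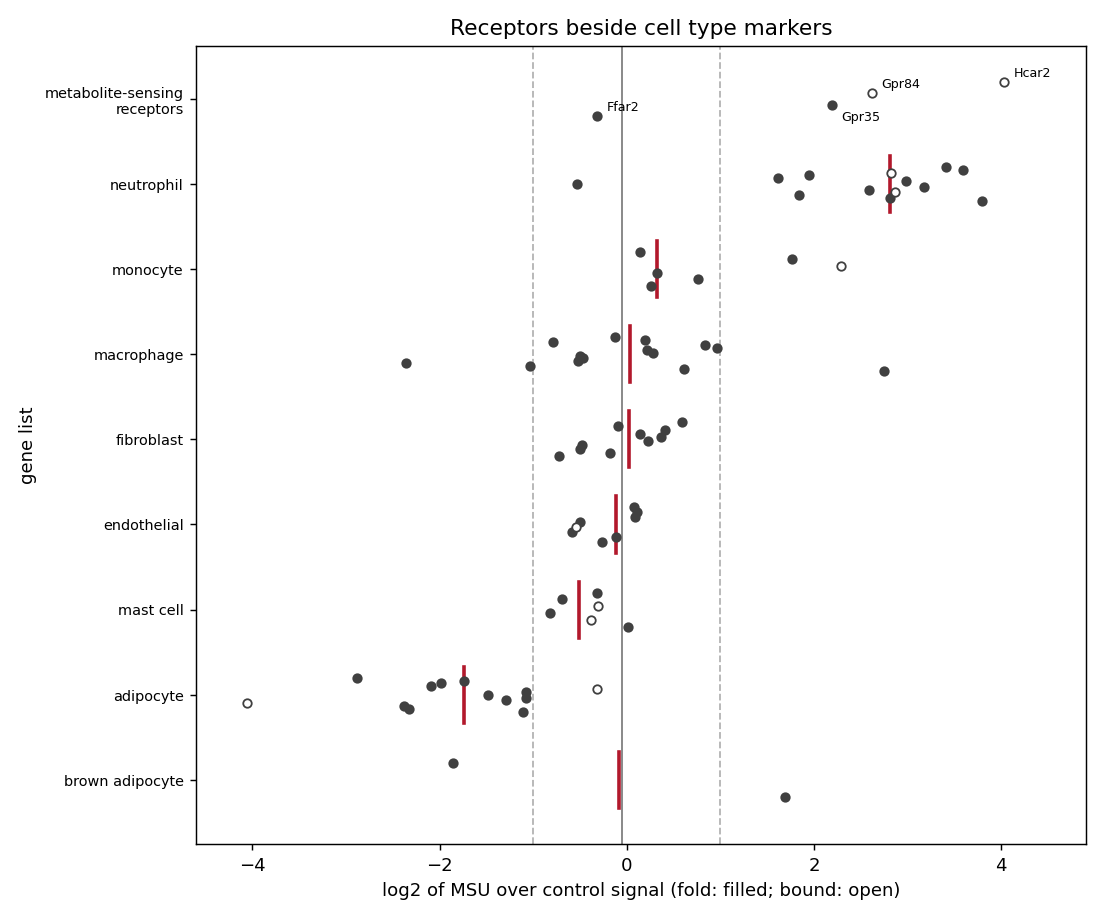
Ratio of MSU to control signal on the log2 scale (x axis) for the 4 measured receptors and the measured members of 8 cell type marker lists (y axis), 1 array per pool, with folds as filled and bounds as open points. Red bars are list medians over the folds, dashed lines 2-fold, and the grey line the median of all genes (-0.05). Gpr84 and Gpr35 lie within the range of the neutrophil markers and Hcar2 to the right of it, and Ffar2 lies near the line of all genes.

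Macrophage markers showed no common direction. Their median log2 ratio of 0.03 over 14 genes turned below 0 under each of the other scalings, and single markers ran both ways. Cd14, the lipopolysaccharide co-receptor, was 6.70-fold and the hemoglobin scavenger receptor Cd163 1.94-fold higher, whereas the lipid receptor Trem2 was 5.15-fold and the folate receptor Folr2 2.05-fold lower. Csf1r, the growth factor receptor that defines macrophages, had signals of 6120 (MSU) and 5349 (control), and its log2 ratio of 0.19 fell below 0 under scaling on the spike-ins. Among monocyte markers, Chil3 was 3.40-fold and F10 at least 4.89-fold higher, whereas the chemokine receptor Ccr2 had a log2 ratio of 0.14, below 0 under scaling on the spike-ins. Markers of brown fat, which lies between the shoulder blades, were below the floor on both arrays for 4 of 6 genes, among them Ucp1, and of the other 2 Cox8b was 3.64-fold lower and the thyroid hormone deiodinase Dio2 3.23-fold higher. Of 6 measured mast cell markers, 0 reached 2-fold (2 were lower by that size when scaled on the spike-ins), and Mcpt4 and Tpsb2 had only a bound, which sets no upper limit.

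Among other receptors for metabolites, 8 of the 14 genes with a probe set were measured, of which 3 were higher by at least 2-fold and 0 lower by that size. Gpr65, a proton sensor of leukocytes, had signals of 148 (MSU) and 55.2 (control) and was at least 2.28-fold higher. Gpr132, a receptor on macrophages that has been paired with lactate and oxidized fatty acids, had 170 (MSU) and 78.3 (control) and was 2.17-fold higher. The aryl hydrocarbon receptor Ahr, an intracellular receptor for kynurenine, had 390 (MSU) and 186 (control) and was 2.10-fold higher. Scaled on the spike-ins, none of these 3 reached 2-fold. The median log2 ratio of 0.44 over 7 genes turned to -0.01 under that scaling, beside -0.51 for all genes. P2ry14, a receptor for UDP-sugars, had 114 (MSU) and 100.5 (control), a log2 ratio of 0.19 that became negative when scaled on the spike-ins. Taar1, a trace amine receptor, had 79.4 (MSU) and 81.8 (control). Ffar4, a receptor for long-chain fatty acids on fat cells, and the 2-oxoglutarate receptor Oxgr1 were below the floor on both arrays.

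The G proteins through which the receptors act were measured, and most of this list differed by less than 2-fold. Gnai2, an inhibitory G protein subunit, had signals of 2656 (MSU) and 2293 (control) and a log2 ratio of 0.21, which was below 0 under scaling on the spike-ins. Gnai3 was 1.48-fold higher and Gna13 1.78-fold higher, whereas Gnai1 had a log2 ratio of -0.58. Of the 22 measured genes of this list, 3 were higher and 1 was lower by at least 2-fold (2 and 2 when scaled on the spike-ins). Their median log2 ratio of 0.23 turned to -0.22 under that scaling. Pde4b, which breaks down cyclic AMP, had 1177 (MSU) and 231 (control) and was 5.10-fold higher. Rgs16 and Rgs1, which speed up the shut-off of G protein signals, were 4.51- and 2.19-fold higher, and Rgs18, of the same family, was 2.14-fold lower.

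**Figure D4:**
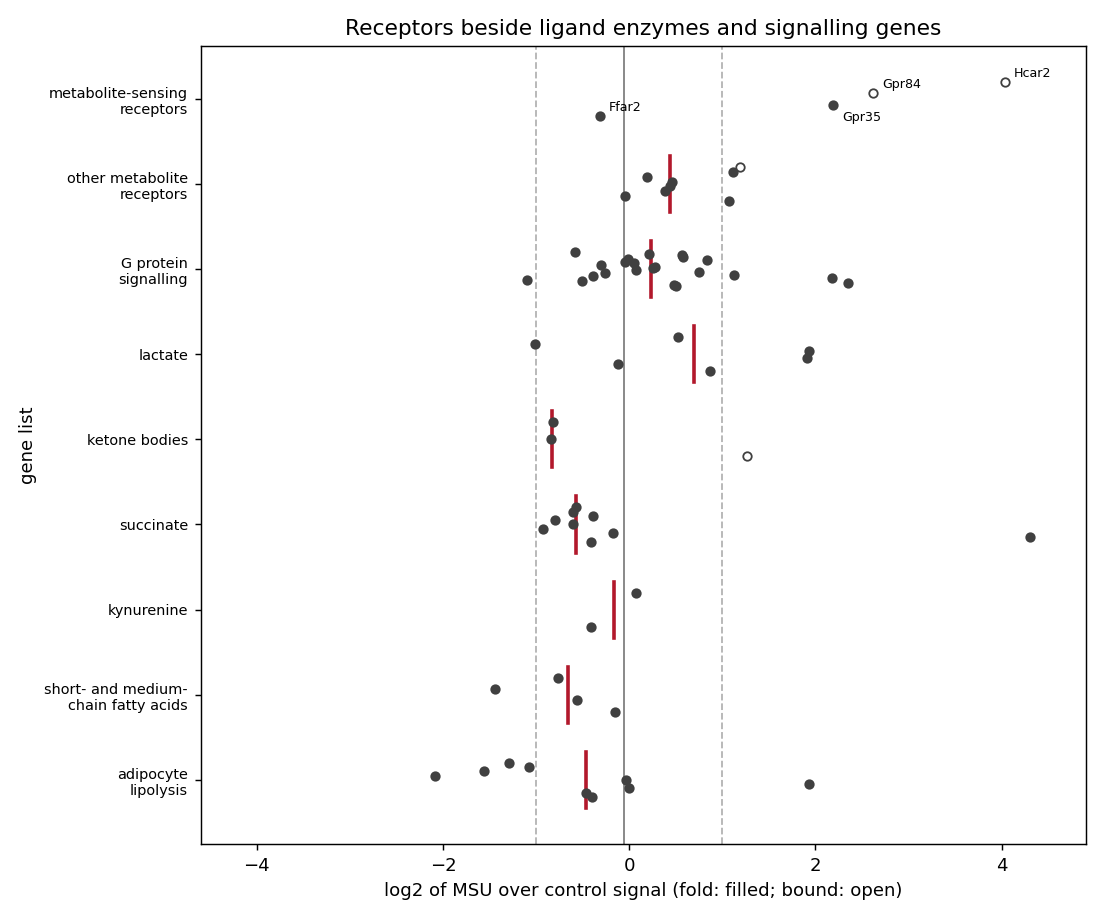
The log2 ratio of MSU to control signal (x axis) for the 4 measured receptors and measured members of 8 lists of related receptors, signalling genes and ligand enzymes (y axis), 1 array per pool, with folds as filled and bounds as open points. Red bars are list medians over the folds, dashed lines 2-fold, and the grey line the median of all genes (-0.05). The point at 4.31 in the succinate list is Acod1, whereas the other members of that list lie below 0.

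Genes that make, use or carry the ligands of these receptors were also measured. For lactate, the ligand of Hcar1, 2 of the monocarboxylate transporters that carry it across the cell membrane were higher, with signals of 1399 (MSU) and 367 (control) for Slc16a1, or 3.81-fold, and 1325 (MSU) and 353 (control) for Slc16a3, or 3.76-fold. The transporter Slc16a7, with 4.60 (MSU) and 31.0 (control), was below the floor on both arrays. Lactate dehydrogenase A (Ldha), which makes lactate from pyruvate, had signals of 6452 (MSU) and 4496 (control) and was 1.44-fold higher, whereas Ldhb was 2.02-fold and the transporter chaperone Bsg 1.08-fold lower. For the ketone body ligand of Hcar2, Oxct1 and Acat1, which use ketone bodies, were 1.77- and 1.79-fold lower, and the transporter Slc16a6 at least 2.41-fold higher, which was under 2-fold when scaled on the spike-ins.

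For succinate, the ligand of Sucnr1, 8 of 9 measured genes had a lower signal in the MSU pool, and none of these by 2-fold or more (5 when scaled on the spike-ins). The subunits of succinate dehydrogenase, which oxidizes succinate, were 1.49-fold (Sdha), 1.52-fold (Sdhb) and 1.74-fold (Sdhd) lower, and Sdhc had a log2 ratio of -0.38. Suclg1, a subunit of the enzyme that makes succinate, had the lowest ratio at 1.89-fold lower, and Suclg2, of the same enzyme, was 1.13-fold lower. The exception was Acod1, which makes itaconate, a compound that inhibits succinate dehydrogenase. It had signals of 3078 (MSU) and 155 (control) and was 19.8-fold higher. The median log2 ratio of the list was -0.57 and turned to -1.03 under scaling on the spike-ins.

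For kynurenic acid, a ligand of Gpr35, 8 of 10 pathway genes were below the floor on both arrays, among them Ido1 and Tdo2, which open the pathway. Kyat3, which makes kynurenic acid from kynurenine, had signals of 128 (MSU) and 170 (control) and was 1.33-fold lower, while Kmo, which directs kynurenine away from it, had 77.4 (MSU) and 73.5 (control). For the fatty acid ligands of Ffar2 and Gpr84, 6 of 10 genes were below the floor on both arrays. The 4 measured enzymes all had a lower signal in the MSU pool (3 by 2-fold or more when scaled on the spike-ins). Of these, Acss2, which activates acetate, was 2.71-fold lower and Acss1, its mitochondrial counterpart, 1.70-fold lower. Acadm, which oxidizes medium-chain fatty acids, had 805 (MSU) and 1185 (control) and was 1.47-fold lower.

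The release of fatty acids from stored fat is the process that Hcar1 and Hcar2 restrain in fat cells. Of 9 measured genes of this process, 4 were lower and 1 was higher by 2-fold or more in the MSU pool. The lipases Pnpla2, Lipe and Mgll were 2.44-, 2.11- and 2.95-fold lower and the lipid droplet protein Cidec 4.25-fold lower, of which Pnpla2, Lipe and Cidec are also on the list of fat cell markers. G0s2, an inhibitor of the lipase encoded by Pnpla2, had signals of 819 (MSU) and 215 (control) and was 3.81-fold higher. Pde3b, which breaks down cyclic AMP in fat cells, had 455.9 (MSU) and 456 (control).

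**Figure D5:**
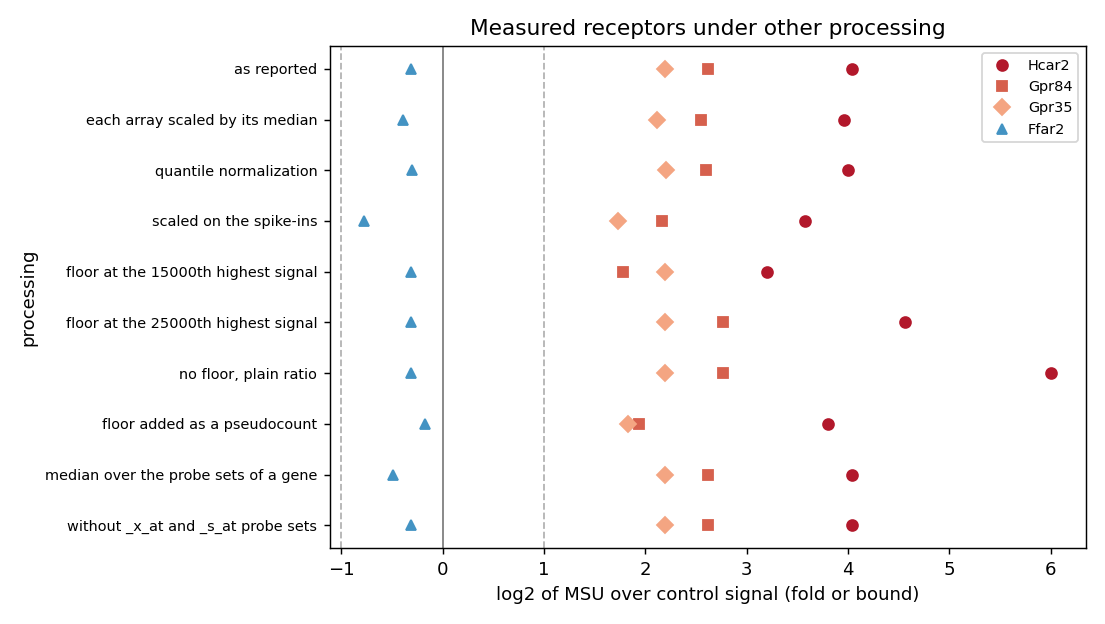
The log2 ratio of MSU to control, as fold or bound (x axis), of the 4 measured receptors as reported and under 9 other ways of processing (y axis), 1 array per pool, with dashed lines at 2-fold. Hcar2 runs between 3.20 and 6.00, Gpr84 between 1.78 and 2.77 and Gpr35 between 1.74 and 2.20, all to the right of 2-fold, and Ffar2 between -0.77 and -0.17.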

How the data were processed

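Pooled RNA from dissected air pouch membranes of 3 MSU and 3 control mice was measured on 2 Affymetrix mouse arrays. The deposited intensity of each probe set is a linear signal that the authors obtained with MAS5, named in the submitters' processing notes (version not given in the sources used here), and scaled per array. The study's methods give another volume of air and day of injection than the sample records, which state 2 ml and day 7.

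Of the 45101 probe sets, 64 Affymetrix control probe sets were left out of the assignment to genes, whereas the floors and the ranks on each array used all 45101. The annotation gave 1 gene for 34945 of the others and several for 932, and the rest were not listed. Symbols were updated with the RefSeq table of GRCm38.p6. For a gene with several probe sets, the one with the highest mean log2 signal stood for the gene. Ratios were computed as MSU over control. No p-value was computed, since each condition had 1 array, and the number of arrays limits precision. The limit of 2-fold is a fixed size and no test.

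The receptors and the 23 gene lists (219 of 242 symbols with a probe set) were chosen with earlier results of these data known. Named were all receptors, the 5 genes nearest to Hcar2, and from each list described the members with the highest and lowest ratios and the brightest. Some lists have fewer named. Neighbouring genes (3 on each side), motifs and some other list members were added after values were seen. The gene step was tested on simulated arrays, in which changes were given only to genes with a bright control signal. A true change from a control signal below the floor, as in the bounds of Hcar2 and Gpr84, was not simulated. Alternatives were 3 scalings, 4 treatments of the floor, 2 choices of probe set and a size of 3-fold. Computations used Python 3.11.15, numpy 2.4.6 and pandas 2.3.3.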

Additional observations from a re-analysis of the deposited data

How the results depend on the processing

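Hcar2, Gpr84 and Gpr35 stayed higher by 2-fold or more in the MSU pool under all 9 alternatives, and Ffar2 stayed lower under all 9, as a fold under 2 in 8 of them and as a bound of log2 -0.49 with the median of its probe sets. The 2 choices of probe set could not move Hcar2, Gpr84 or Gpr35, which have 1 probe set each. Gpr35, above both floors, also kept its log2 ratio of 2.19 at the other floor ranks and with no floor. The size of these values moved by more than 0.33, the pooled SD among probe sets for the same gene, in the following cases. Scaling on the spike-ins gave log2 ratios of 3.58 for Hcar2, 2.16 for Gpr84, 1.74 for Gpr35 and -0.77 for Ffar2, and medians of 2.36 for the neutrophil and -2.19 for the fat cell markers. A floor at the 15000th highest signal gave 3.20 for Hcar2 and 1.78 for Gpr84, and a floor at the 25000th gave 4.56 for Hcar2. With the floor added as a pseudocount, the log2 ratio was 1.94 for Gpr84 and 1.83 for Gpr35, while the neutrophil median was 2.10. With no floor, the plain log2 ratio was 6.00 for Hcar2. Taking the median of each gene's probe sets gave a fat cell median of -1.35. Hcar1 and Sucnr1 were above the floor on 0 arrays under all 7 alternatives that use a floor. Of these, only the floor at the 25000th highest signal could have changed that. The floor follows the rank of signals on each array, so the scalings cannot move a probe set across it. Both genes have 1 probe set, and the floor at the 15000th is stricter. With no floor and with the pseudocount, the log2 ratios were -0.21 and 0.08 for Hcar1 and -3.09 and -0.09 for Sucnr1. By construction, the bound of a gene below the floor in the control pool moves with the floor, and other causes were not tested.

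The count of genes at least 2-fold higher, 413, was 200 under scaling on the spike-ins, 1623 with no floor and 164 at a size of 3-fold. The count of genes at least 2-fold lower, 478, was 1787, 1724 and 80 under these settings, and 217 with the floor added as a pseudocount. Hcar1, Sucnr1 and the control signals of Hcar2 and Gpr84 lay below the floor, so the arrays give only limits there. No paired analysis was possible because each condition had 1 array.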

Other observations

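Other cell type markers, which were not set beside the receptors above, were measured in the same pools. Of 7 measured epithelial genes, 3 were lower (5 when scaled on the spike-ins) and 0 higher by 2-fold or more in the MSU pool. Among 8 endothelial, 4 dendritic cell and 10 fibroblast genes measured, 0 reached 2-fold. Of these, Vwf (22.9 in MSU, 108 in control) and Ccr7 (94.0 in MSU, 8.09 in control) had only a bound, which sets no upper limit, and scaling on the spike-ins put 1 endothelial and 1 fibroblast gene at 2-fold lower or more. The fibroblast median log2 ratio of 0.02 was below 0 under each of the other 3 scalings. In B, NK and T cell lists, 2 of 5, 1 of 6 and 1 of 7 genes with a probe set were measured, and 0 of these reached 2-fold, some as bounds.

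On chromosome 7, next to Ffar2, the genes of the related receptors Ffar3 and Ffar1 were not analysed here. Dmkn, an epidermal gene on the other side of Ffar2, had signals of 299 (MSU) and 179 (control) and was 1.67-fold higher. On chromosome 3, Mbnl1, an RNA splicing factor gene next to Sucnr1, had signals of 1441 (MSU) and 2028 (control) and was 1.41-fold lower.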
